A study of Mus musculus with 21 samples.

Results

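Sox4, Sox11 and Sox12 form group C of the Sox transcription factor family (SoxC), and their transcripts were followed in sorted cells of the mouse embryonic pancreas. The genes were selected on their symbols, after earlier results from the same arrays had shown lower Sox4 and Sox11 signal at E15.5 than at E12.5 in FVF+ cells. That difference is therefore described here without a test, as are the Sox4 and Sox11 comparisons of the sorts that use the FVF+ arrays of those days. Each of the 3 genes had exactly 1 probe set annotated with its symbol alone, out of 19296 genes measured in this way. Where a gene has several probe sets the one with the highest mean signal was to be used, but for these 3 genes there was nothing to choose between.

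Pancreata of embryos on a mixed C57-Bl6/SV129/CD1 background were separated by fluorescence into cells with the Foxa2-Venus Fusion protein (FVF+) and cells without it (FVF-). Foxa2 is a forkhead factor of the endoderm, so the FVF+ cells are epithelium and the FVF- cells hold mesenchyme, vessels, blood and nerve. All groups share the fusion allele as the basis of the sort, and its zygosity, the sex of the embryos and any pooling are not given in the sources used here. The groups were FVF- cells of E12.5 (n = 2), E13.5 (n = 2), E14.5 (n = 3) and E15.5 (n = 3), and FVF+ cells of E12.5 (n = 3), E13.5 (n = 2), E14.5 (n = 3) and E15.5 (n = 3), 21 arrays in all. Values are log2 robust multi-array average (RMA) signals, on which 1 unit is a 2-fold difference. The study calls the replicates biological, but whether they came from separate embryos or litters is not stated, and the p-values cover only the spread seen among them, which may be technical in part. The number of arrays limits the precision.

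The labels matched the markers of the sort. Foxa2 lay at 10.87 or above on every FVF+ array and at 8.89 or below on every FVF- array. Averaged over 7 epithelial genes, the signal was 12.59 to 12.94 on FVF+ arrays, whereas 8 mesenchyme genes averaged 8.53 to 9.86 there and 11.98 to 12.95 on FVF- arrays. Some arrays stood apart within their group. Of the FVF+ E12.5 arrays, replicate 1 had the highest mesenchyme average (9.73 against 8.75 and 8.53), and among FVF- arrays the epithelial average ranged from 8.32 to 9.91 at E14.5. In FVF+ at E13.5 the average over 5 endothelial genes was 7.82 in replicate 1 and 9.43 in replicate 2. For each SoxC gene, FVF- at E13.5 had the widest spread of all groups, as described below.

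SoxC proteins bind DNA through a high-mobility-group box and activate transcription through a domain at the C-terminal end. The 3 intronless genes overlap in expression and partly stand in for each other in many embryonic tissues, where they keep progenitors and newly formed neurons and mesenchymal cells alive and developing. In the mouse pancreas, Sox4 is needed for the normal formation of endocrine cells, which start from cells that express the transcription factor Neurog3. Sox11 is the strongest activator of the group in mouse assays and is known from neuron and organ formation, and Sox12 is the weakest activator and is dispensable on its own in mice.

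The 250 bases before the annotated start site of each gene are shown so that the 3 genes can be compared in composition and motifs. They are from RefSeq (GRCm38.p6), which held all 3 genes. Sox4 lies on chr13:28953700-28953949, Sox11 on chr12:27342719-27342968 and Sox12 on chr2:152398047-152398296, all on the minus strand, and each is written 5′ to 3′ in the direction of transcription. Capitals mark the letters of a CCAAT box (CCAAT), an E box (CAGCTG), a forkhead motif (TGTTTAC) and a GC box (GGGCGG), on either strand.
Sox4: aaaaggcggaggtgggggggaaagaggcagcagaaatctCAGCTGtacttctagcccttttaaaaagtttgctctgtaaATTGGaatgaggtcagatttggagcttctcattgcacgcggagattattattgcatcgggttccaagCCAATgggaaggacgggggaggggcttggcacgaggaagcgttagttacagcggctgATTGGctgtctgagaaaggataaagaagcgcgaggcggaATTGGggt
Sox11: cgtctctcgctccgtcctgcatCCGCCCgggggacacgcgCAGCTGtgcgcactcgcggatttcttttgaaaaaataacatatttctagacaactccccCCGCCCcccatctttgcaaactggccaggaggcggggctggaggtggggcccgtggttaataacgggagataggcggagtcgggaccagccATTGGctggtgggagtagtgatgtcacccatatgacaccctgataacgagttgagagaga
Sox12: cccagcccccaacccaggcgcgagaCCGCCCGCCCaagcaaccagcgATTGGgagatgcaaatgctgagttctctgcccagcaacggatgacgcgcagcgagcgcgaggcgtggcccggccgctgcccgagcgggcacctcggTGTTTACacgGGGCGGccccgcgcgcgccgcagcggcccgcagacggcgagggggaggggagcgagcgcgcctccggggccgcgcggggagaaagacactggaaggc

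The windows differ in composition and in the motifs they hold. G and C made up 50.8% of the Sox4 window, 58% of the Sox11 window and 74.4% of the Sox12 window, against a median of 52.4% over 32851 promoters. All 3 hold a CCAAT box, 4 in Sox4 and 1 each in Sox11 and Sox12, and 33.8% of all promoters do. The E box is present once in Sox4, starting at position -211 from the start site, and once in Sox11, starting at -210, and in 13% of all promoters. A GC box occurs at 2 places in Sox11 and at 3 in Sox12, where a pair of them overlap, and in 32.7% of all promoters. The forkhead motif occurs only in the Sox12 window at -107, and in 3.17% of all promoters. A further motif known from Sox binding, ACAAAG, is in 16.5% of all promoters and in none of the 3 windows. No binding was measured here.

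Sox11 had the widest range of the 3 genes. Its group means spanned 3.34 log2 units, or 10.1-fold, against 1.06 for Sox4 and 1.01 for Sox12. In FVF+ cells Sox11 read 10.75, 10.52 and 10.89 at E12.5 (replicates 1 to 3) and 10.23 and 10.52 at E13.5. It then read 9.17, 8.54 and 9.09 at E14.5 and 7.71, 7.55 and 8.21 at E15.5. No E14.5 array reached the level of an earlier FVF+ array, and no E15.5 array reached that of E14.5. In FVF- cells it read 11.06 and 11.26 at E12.5, 10.21 and 11.45 at E13.5, 9.47, 9.8 and 9.97 at E14.5, and 9.91, 9.68 and 9.90 at E15.5. The FVF- arrays of the later days were all below those of E12.5 and E13.5, and E14.5 and E15.5 overlapped each other.

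Ordered by mean, Sox11 was highest in FVF- at E12.5 (11.16 ± 0.14, SD, n = 2), followed by FVF- at E13.5 (10.83 ± 0.88, n = 2), FVF+ at E12.5 (10.72 ± 0.19, n = 3) and FVF+ at E13.5 (10.38 ± 0.21, n = 2). Each of these neighbours in the order overlapped the next. A gap without overlap separated them from FVF- at E15.5 (9.83 ± 0.13, n = 3) and FVF- at E14.5 (9.75 ± 0.25, n = 3). FVF+ at E14.5 (8.93 ± 0.34, n = 3) and FVF+ at E15.5 (7.82 ± 0.34, n = 3) were lowest, each without overlap with the group above it.

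Sox4 had a narrower range of group means. In FVF+ cells it read 11.22, 11.14 and 11.07 at E12.5, 11.27 and 11.21 at E13.5, 10.72, 10.38 and 10.79 at E14.5, and 10.31, 9.91 and 10.31 at E15.5. In FVF- cells it read 11.14 and 10.97 at E12.5, 10.70 and 11.68 at E13.5, 10.39, 10.72 and 10.68 at E14.5, and 10.51, 10.43 and 10.41 at E15.5. Both sorts at E12.5 and E13.5, with means from 11.06 to 11.24, came first in the order, and neighbours among these 4 groups overlapped. FVF+ at E14.5 (10.63 ± 0.22, n = 3), FVF- at E14.5 (10.60 ± 0.18, n = 3) and FVF- at E15.5 (10.45 ± 0.05, n = 3) overlapped in turn. FVF+ at E15.5 was lowest (10.18 ± 0.23, n = 3) and did not overlap with FVF- of that day.

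Sox12 was ordered by sort before day. In FVF- cells it read 11.29 and 11.45 at E12.5, 10.83 and 11.44 at E13.5, 11.40, 11.21 and 11.02 at E14.5, and 10.90, 10.90 and 10.87 at E15.5. In FVF+ cells it read 11.08, 10.71 and 10.84 at E12.5, 10.87 and 10.79 at E13.5, 10.62, 10.81 and 10.59 at E14.5, and 10.23, 10.56 and 10.28 at E15.5. All 4 FVF- means, from 10.89 to 11.37, were above all 4 FVF+ means, from 10.36 to 10.88, although neighbours in the order overlapped. The only step in the order without overlap was the last, to FVF+ at E15.5 (10.36 ± 0.18, n = 3).

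The spread of the FVF- E13.5 group came from a gap shared by all 3 genes. Replicate 2 was above replicate 1 by 0.98 for Sox4, 1.24 for Sox11 and 0.61 for Sox12. A gap of at least that size was seen in 1.11%, 0.399% and 6.24% of all genes. Replicate 1 has a number as its array code and replicate 2 a letter, as have both FVF+ E13.5 arrays. What the codes stand for is not given. In FVF+ cells the letter and the day E13.5 cannot be told apart.

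**Figure D1:**
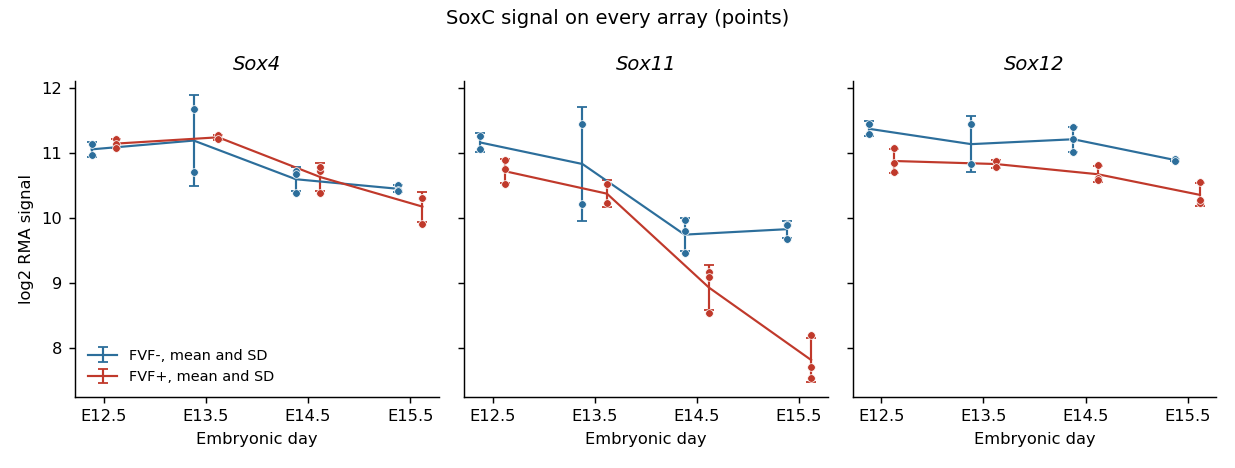
log2 RMA signal (vertical axis) of Sox4, Sox11 and Sox12 on each of the 21 arrays (points) by embryonic day, with group means joined by lines and SD as bars, FVF+ in red and FVF- in blue. Sox11 in FVF+ descends to 7.55 to 8.21 at E15.5, Sox12 runs parallel in both sorts with FVF- above, and the 2 FVF- arrays of E13.5 lie apart in each panel.

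FVF+ and FVF- cells were first compared over all days, averaging the difference of each day with equal weight, in a limma fit across all genes (two-sided, adjusted by Benjamini and Hochberg, called at an adjusted p under 0.05). Sox11 stood at -0.93 ± 0.14 log2 units (SE), FVF+ minus FVF-, and Sox4 at -0.03 ± 0.10, with a 95% interval from -0.23 to 0.18. For these 2 genes the averages are values only, since they include the FVF+ arrays of E12.5 and E15.5, and E15.5 contributes the largest Sox11 difference. Sox12 was not part of the earlier result, though its average uses the same FVF+ arrays. It was lower in FVF+ at -0.47 ± 0.08 (adjusted p = 3.52e-05), or 1.38-fold, where 25.2% of all genes were called lower and 30.5% higher. That call held with each of the 21 arrays left out.

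The average over E13.5 and E14.5 uses none of the FVF+ arrays in the known difference and was added after the data were seen. On these days Sox11 was lower in FVF+ (-0.63 ± 0.20, adjusted p = 0.0119, 95% interval -1.05 to -0.22), as was Sox12 (-0.42 ± 0.11, adjusted p = 0.00404), and Sox4 was not called (0.04 ± 0.14, adjusted p = 0.844, 95% interval -0.26 to 0.34). Thus 2 of 3 were called lower, where 21.9% of all genes were. The Sox11 call was lost without FVF- E13.5 replicate 2 (-0.32, adjusted p = 0.126) and without FVF+ E13.5 replicate 1 (-0.56, adjusted p = 0.0566). Sox4 was called higher in FVF+ without FVF- E13.5 replicate 2 (0.29, adjusted p = 0.0444). Sox12 remained called without each of the 10 arrays (adjusted p of at most 0.0436).

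Markers of the non-epithelial cell types moved with the sort difference over the 4 days. All 8 mesenchyme, 5 endothelium, 4 measured red blood cell, 5 macrophage and 4 measured neuron and glia genes were lower in FVF+. Of all genes, 25.2% were called lower there. The neuron and glia average, over Stmn2, Elavl4, Sox10 and Foxd3, was 8.74 to 9.57 on FVF- arrays and 7.59 to 8.23 on FVF+ arrays. The part of these cell types in the SoxC signal was not tested. In bulk samples such as these, fewer cells of a type and less RNA per cell cannot be told apart.

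For Sox11, FVF+ minus FVF- was -0.44 ± 0.28 at E12.5 (95% interval -1.02 to 0.14) and -2.01 ± 0.25 at E15.5 (95% interval -2.53 to -1.48), both given without a test. The E15.5 value is a 4.02-fold lower signal, on the FVF+ arrays whose low Sox11 signal was already known. At E13.5 the difference was -0.46 ± 0.30 and not called (adjusted p = 0.289, 95% interval -1.09 to 0.18). At E14.5 Sox11 was lower in FVF+ (-0.81 ± 0.25, adjusted p = 0.0117). The E14.5 call was lost without FVF- replicate 3 (-0.70, adjusted p = 0.0501) and without FVF+ replicate 2 (-0.62, adjusted p = 0.0653). At E13.5 the value depended on 1 array, at -1.08 (adjusted p = 0.00747) without FVF- replicate 1 and 0.17 (adjusted p = 0.703) without FVF- replicate 2.

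Sox12 was called lower in FVF+ on 3 of the 4 days, of which E12.5 and E15.5 use FVF+ arrays of the known difference. The difference was -0.49 ± 0.16 at E12.5 (adjusted p = 0.02), -0.54 ± 0.14 at E14.5 (adjusted p = 0.00418) and -0.53 ± 0.14 at E15.5 (adjusted p = 0.0046). At E13.5 it was -0.31 ± 0.17 and not called (adjusted p = 0.204). That day it was -0.61 without FVF- replicate 1 (adjusted p = 0.0141) and 0.00 without FVF- replicate 2 (adjusted p = 1). The E12.5 call was lost without FVF- replicate 2, which leaves 1 array in that group (-0.41). It was also lost without FVF+ replicate 2 (-0.41, adjusted p = 0.0798) or FVF+ replicate 3 (-0.48, adjusted p = 0.0539). Without FVF+ replicate 1 it held (-0.60, adjusted p = 0.0103).

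Sox4 was called on neither of the days tested. It differed by 0.05 ± 0.22 at E13.5 (adjusted p = 0.895) and by 0.03 ± 0.18 at E14.5 (adjusted p = 0.908). Without a test, the difference was 0.09 ± 0.20 at E12.5 (95% interval -0.34 to 0.51) and -0.27 ± 0.18 at E15.5 (95% interval -0.65 to 0.11). At E13.5, Sox4 was 0.54 higher in FVF+ without FVF- replicate 2 (adjusted p = 0.0381) and stood at -0.44 without FVF- replicate 1 (adjusted p = 0.0998). None of the 3 genes was called lower at E13.5, where 15.2% of all genes were, and 2 were at E14.5, where 21.5% were. Genes called lower made up 18.7% at E12.5 and 19.5% at E15.5, days on which Sox12 alone was tested and was called. Whether the sort difference changed between E12.5 and E15.5 was not tested.

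**Figure D2:**
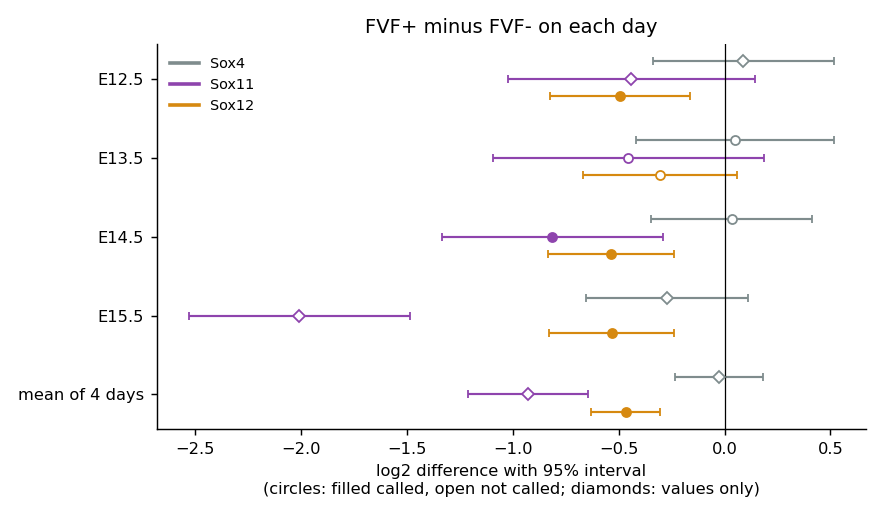
FVF+ minus FVF- log2 difference (horizontal axis, points with 95% intervals) for the SoxC genes by day and averaged over the days. Filled circles were called at an adjusted p under 0.05, open circles were not, and diamonds are values without a test. Sox4 lies between -0.27 and 0.09, Sox12 lies between -0.54 and -0.31 and Sox11 extends to -2.01 at E15.5.

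Changes over time were tested within FVF- cells, which the choice of the genes had not used. From E12.5 to E15.5 all 3 genes fell, where 9.7% of all genes were called lower and 10.7% higher. Sox11 fell by 1.33 ± 0.28 (adjusted p = 0.00232), or 2.51-fold. Sox4 fell by 0.61 ± 0.20 (adjusted p = 0.0424) and Sox12 fell by 0.48 ± 0.16 (adjusted p = 0.0383). The Sox11 call held without each of the 5 arrays in turn (-1.43 to -1.23, adjusted p of at most 0.0381). The Sox4 and Sox12 calls were lost without any one of them (adjusted p from 0.0725 to 0.246 and from 0.0714 to 0.249) and after quantile or cyclic loess normalization, and that of Sox12 also with a replicate block (-0.44, adjusted p = 0.0588). Median centring called 1637 genes higher and 2651 lower in this comparison, and cyclic loess 2476 and 1406, against 2073 and 1872 as deposited. Over these days 3 of 7 epithelial, 4 of 8 mesenchyme, 3 of 5 macrophage and 3 of 5 acinar markers rose in FVF-, as did 1 each of the endothelium, red blood cell, neuron and glia, and endocrine markers, and 3 of 4 measured red blood cell markers fell. The macrophage average went from between 9.52 and 9.57 to between 10.57 and 10.85, and the acinar average from between 8.48 and 8.50 to between 9.56 and 10.56. The part of these cell types in the SoxC values was not tested.

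Within FVF-, Sox11 fell between E13.5 and E14.5, at -1.08 ± 0.28 (adjusted p = 0.0265). Sox4 stood at -0.59 ± 0.20 in that step (adjusted p = 0.0743) and Sox12 at 0.08 ± 0.16 (adjusted p = 0.819), so 1 of 3 was called, where 2.62% of all genes were. The Sox11 step rested on the divided E13.5 group. It was -0.46 without FVF- E13.5 replicate 2 (adjusted p = 0.471), -1.70 without replicate 1 (adjusted p = 9.14e-04), and not called without FVF- E14.5 replicate 1 (-0.95, adjusted p = 0.107). Without FVF- E13.5 replicate 1 Sox4 was called as well (-1.08, adjusted p = 0.00132). From E12.5 to E13.5 none of the 3 was called (0.135, -0.33 and -0.24 for Sox4, Sox11 and Sox12, adjusted p of 0.557 or more), where 0.161% of all genes were called lower. From E14.5 to E15.5 none was called either (-0.15, 0.08 and -0.32, adjusted p of 0.173 or more), where 4.65% were.

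Within FVF+, the step from E13.5 to E14.5 uses none of the E12.5 and E15.5 arrays and was tested. Sox11 fell 2.72-fold (-1.44 ± 0.28, adjusted p = 0.00287). Sox4 stood at -0.61 ± 0.20 (adjusted p = 0.0711, 95% interval -1.04 to -0.18) and Sox12 at -0.16 ± 0.16 (adjusted p = 0.578, 95% interval -0.49 to 0.17). Hence 1 of 3 was called lower, where 2.97% of all genes were. The Sox11 call was lost without FVF+ E13.5 replicate 2, which leaves 1 array in that group (-1.30). With a term for letter-coded arrays, which only the 2 FVF- E13.5 arrays determine, Sox11 stood at -0.20 ± 0.38 (adjusted p = 0.934), Sox4 at 0.37 and Sox12 at 0.45, and calls over all genes dropped from 573 to 54 lower and from 1134 to 73 higher. In the same step, 4 of 6 measured endocrine markers and 2 of 5 acinar markers rose, where 1134 of 19296 genes were called higher. The endocrine average went from 11.12 to 11.66 at E13.5 up to 12.77 to 13.22 at E14.5. In that step 3 of 8 mesenchyme markers and 1 of 4 measured red blood cell markers fell, and the red blood cell average went from 8.87 on both E13.5 arrays to between 7.31 and 7.55. These marker calls were not examined with the letter term. The part of this change in cell makeup in the SoxC values was not tested.

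The interaction of sort and this step was called for none of the 3 genes, where 1.64% of all genes were called lower. The interaction, the FVF+ step less the FVF- step, was -0.36 ± 0.39 for Sox11 (adjusted p = 0.686, 95% interval -1.18 to 0.47), and it stood at -0.02 ± 0.29 for Sox4 (adjusted p = 0.984) and -0.23 ± 0.22 for Sox12 (adjusted p = 0.639). For Sox11 it was 0.26 without FVF- E13.5 replicate 1 and -0.98 without FVF- E13.5 replicate 2.

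The comparison of FVF+ at E15.5 with FVF+ at E12.5 is the one known when the genes were chosen, and is given as values only. E15.5 minus E12.5 was -2.90 ± 0.25 for Sox11, a 7.45-fold lower signal. It was -0.97 ± 0.18 for Sox4, or 1.95-fold, and -0.52 ± 0.14 for Sox12, or 1.43-fold. All 3 had every E15.5 array below every E12.5 array, as had 22.6% of all genes, a share from which nothing is read here. The difference in the first step, E12.5 to E13.5, was 0.10 ± 0.20 for Sox4, -0.35 ± 0.28 for Sox11 and -0.05 ± 0.16 for Sox12. In the last step, E14.5 to E15.5, it was -0.45 ± 0.18, -1.11 ± 0.25 and -0.32 ± 0.14. Set against the same difference in FVF-, the FVF+ difference less the FVF- difference was -1.57 ± 0.37 for Sox11, -0.36 ± 0.27 for Sox4 and -0.04 ± 0.21 for Sox12, which was not tested. With each of the 6 arrays left out in turn, the Sox11 difference was -3.09 to -2.76. Over the same days 3 of 5 acinar, 3 of 6 measured endocrine, 4 of 8 mesenchyme and 2 of 5 macrophage markers rose in FVF+. So did 1 each of the epithelial, endothelium, red blood cell, and neuron and glia markers, and 1 mesenchyme and 1 epithelial marker fell. Of all genes, 27.6% were called higher and 19.3% lower over these days. Of the 11485 genes with a group mean above 8.74, 2672 were called higher and 3310 lower. The acinar average went from between 10.33 and 10.38 to between 12.86 and 12.87, and the endocrine average from between 10.96 and 11.35 to between 12.80 and 12.82. Their part in the SoxC values was not tested.

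**Figure D3:**
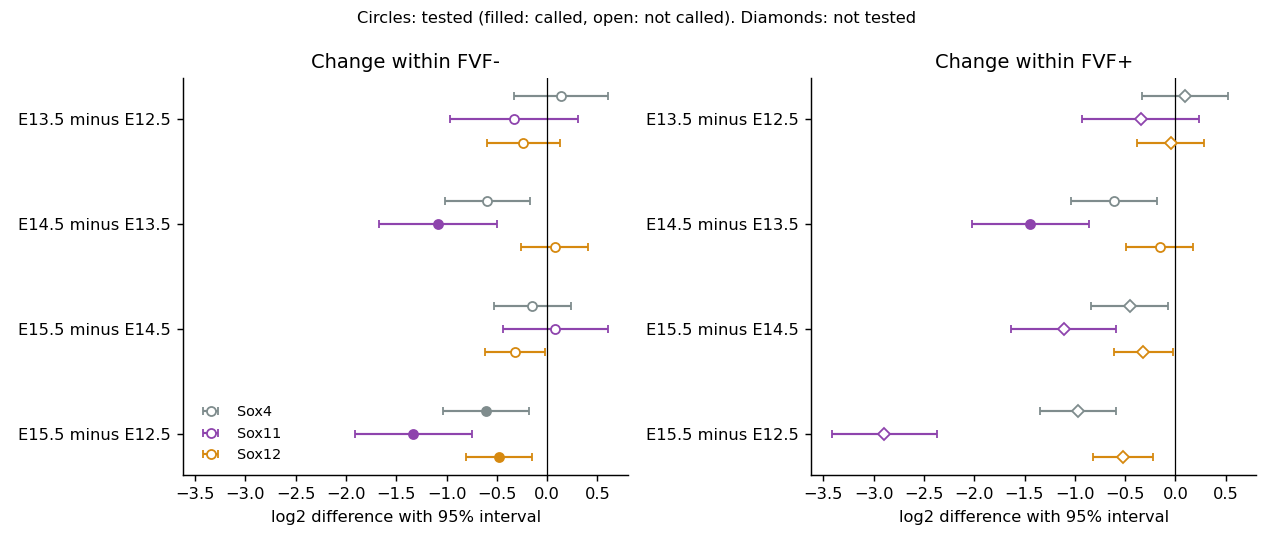
log2 differences between days (horizontal axis, with 95% intervals) within FVF- (left) and FVF+ (right) for Sox4, Sox11 and Sox12. Circles were tested and are filled where called, and diamonds were not tested. Sox11 has the lowest value of the 3 genes except in FVF- from E14.5 to E15.5, reaching -1.33 in FVF- and -2.90 in FVF+ over the whole window.

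Among themselves, Sox4 and Sox11 were the most alike. Pearson's r was 0.957 over the 11 FVF+ arrays and 0.905 over the 10 FVF- arrays. For Sox4 and Sox12 it was 0.698 and 0.607, and for Sox11 and Sox12 0.780 and 0.567. These points share day, sort and array, so the values are descriptions. Those over the FVF+ arrays also include E12.5 and E15.5, between which Sox4 and Sox11 were both known to differ when chosen.

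The genes with the pattern most like each SoxC gene were taken by Pearson's r over the 8 group means, which share libraries and a common trend with day. For Sox4 they were Emsy (0.989), Evi5 (0.986), Cdc37l1 (0.985), Ugcg (0.984) and Mir301 (0.984), and the least like were Znhit2 (-0.990) and Rer1 (-0.987). For Sox11 they were Prkd3 (0.991), Wdr60 (0.987), Pdp1 (0.986), Zfp90 (0.981) and Rcn2 (0.980), and the least like were Ddit4 (-0.994) and Rpn1 (-0.988). For Sox12 they were Amer1 (0.984), Evl (0.983), Cand2 (0.983), Usp21 (0.981) and Csrnp2 (0.980), and the least like were D17H6S56E-5 (-0.989) and Tspan13 (-0.977). Over the 21 arrays instead, 2 of the 5 genes were the same for Sox4, 2 for Sox11 and 1 for Sox12. There r was 0.810 to 0.958 for the 5 genes named for Sox4, lowest for Ugcg (0.810) and Mir301 (0.834). For the 5 of Sox11 it was 0.780 (Wdr60) to 0.948 (Rcn2), and for the 5 of Sox12 it was 0.777 (Amer1) to 0.948 (Evl).

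Of the 16 Sox genes of other groups, all were measured. Over the 4 days, 4 were higher in FVF+, where 30.5% of all genes were, and 8 lower, where 25.2% were. Their median was -0.17 against 0.03 over all genes. Sox9, a factor of pancreatic progenitors and duct, was far higher in FVF+ (3.44 ± 0.13, adjusted p = 8.47e-14), followed by Sox5 (0.45 ± 0.08), Sox13 (0.36 ± 0.06) and Sox21 (0.25 ± 0.05). The endothelial factors Sox18 (-1.86 ± 0.14), Sox7 (-1.52 ± 0.13) and Sox17 (-0.68 ± 0.07) and the cartilage and muscle factor Sox6 (-0.78 ± 0.07) led those that were lower. Sox3 (0.06 ± 0.05) and Sox1 (-0.10 ± 0.07) were not called.

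In FVF- from E12.5 to E15.5, Sox18 (1.27 ± 0.28), Sox7 (0.90 ± 0.28) and Sox17 (0.54 ± 0.15) rose, Sox5 (-0.96 ± 0.17), Sox6 (-0.90 ± 0.15) and Sox8 (-0.37 ± 0.12) fell, and 10 of 16 were not called, Sox9 among them (0.01 ± 0.27). Of all genes 10.7% rose and 9.7% fell there. In FVF+, Sox5 (-1.07 ± 0.15), Sox9 (-1.04 ± 0.24) and Sox6 (-0.84 ± 0.13) fell, where 19.3% of all genes fell, and 8 rose, where 27.6% did. Those that rose included Sox7 (0.65 ± 0.25), Sox14 (0.56 ± 0.11), Sox17 (0.56 ± 0.13) and Sox1 (0.54 ± 0.14), while Sox18 (0.37 ± 0.25) and Sox13 (-0.16 ± 0.11) were not called. The count of 8 was 5 after quantile or cyclic loess normalization and 3 among genes with a group mean above 8.74.

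**Figure D4:**
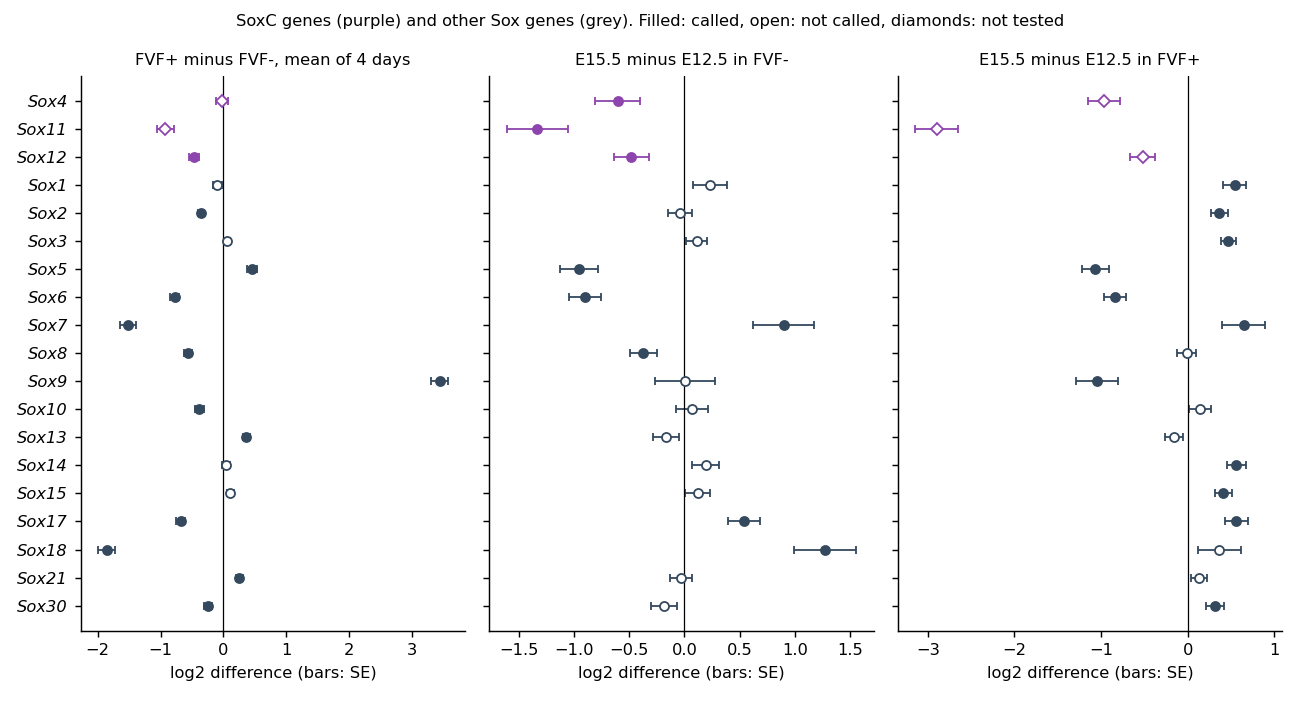
log2 differences with SE bars for the 3 SoxC genes (purple) and 16 other Sox genes (grey) between the sorts, over time in FVF- and over time in FVF+. Filled circles were called, open circles were not, and diamonds are values without a test. Sox9 is the one Sox gene far higher in FVF+ (3.44). The Sox11 value in the right panel (-2.90) was known to be low when the gene was chosen, so no rank is read from it.

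Genes known from other studies as activated by a SoxC factor did not move as 1 group. Of 10 such genes, all measured, 4 were higher in FVF+ over the 4 days, against 30.5% of all genes, and 1 was lower, against 25.2%. Neurog3 (5.03 ± 0.19), Pax4 (3.73 ± 0.18), a factor of the beta cell lineage, the microtubule gene Map2 (2.11 ± 0.12) and the migrating-neuron gene Dcx (0.34 ± 0.13) were higher, and the semaphorin receptor gene Plxna1 was lower (-0.37 ± 0.05). Ezh2, a histone methyltransferase gene (0.12 ± 0.09), and Tead2, a partner of Hippo signalling (0.07 ± 0.06), were not called. In FVF- from E12.5 to E15.5, Dcx fell by 1.64 ± 0.26 (adjusted p = 2.38e-04) and Tead2 fell by 0.63 ± 0.11 (adjusted p = 6.63e-04), and 8 were not called, with Ezh2 at -0.50 ± 0.18 and Plxna1 at -0.15 ± 0.10. None of the 10 rose there, and 9.7% of all genes fell. In FVF+ over the same days, Ezh2 (-1.05 ± 0.16), Nrcam (-0.42 ± 0.09), Tead2 (-0.41 ± 0.10) and Plxna1 (-0.25 ± 0.09) fell. The neuronal tubulin gene Tubb3 (0.67 ± 0.21) and the growth factor gene Gdf5 (0.41 ± 0.09) rose, while Neurog3 (0.53 ± 0.35) and Map2 (-0.05 ± 0.22) were not called. The mean signals of Nrcam (7.70), Tubb3 (8.54) and Gdf5 (7.05) were low, below the median of all values (8.74). In that comparison 19.3% of all genes fell and 27.6% rose, and the median of the 10 was -0.15, against 0.09 over all genes.

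Sox4 acts beside the endocrine commitment factors in the mouse. The list of these factors was chosen with earlier results of these data known, so its counts are descriptions. Of 16 such factors 13 were measured, and each of these was higher in FVF+, where 30.5% of all genes were. Their median was 2.36, and the highest differences were those of Neurog3, Neurod1 (4.95 ± 0.14), Rfx6 (4.80 ± 0.18) and Nkx2-2 (4.46 ± 0.19), whereas Sox4 was at -0.03. In FVF+ from E12.5 to E15.5, 7 of the 13 rose, where 27.6% of all genes did, and none fell, where 19.3% did. Their median was 0.77. Myt1 (1.69 ± 0.24), Mlxipl (1.41 ± 0.25), Pax6 (1.25 ± 0.32) and Isl1 (1.2 ± 0.22) led them, and Insm1 (0.39 ± 0.23) and Neurog3 were not called. In FVF-, Cbfa2t3 rose (1.28 ± 0.13), Insm1 fell (-0.80 ± 0.26), and 11 were not called (10.7% of all genes rose and 9.7% fell), with Neurog3 at 0.70 ± 0.39 and Isl1 at -0.50 ± 0.25.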

How the data were processed

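Affymetrix arrays were hybridised with RNA of 21 sorted pancreas samples in 8 groups, 4 days by 2 sorts. The authors used RMA in affy 1.44.0, per the submitters' processing notes. The deposited values are log2 signals, used here as deposited (array medians 8.68 to 8.82), and probe filters are not given in the sources used here. Symbols come from the platform annotation: of 23305 probe sets, 20728 had 1 symbol, 1174 several and 1403 none. The probe set with the highest mean was kept for each gene, which left 19296 genes.

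Limma 3.58.1 (R 4.3.3) fitted 8 group means to all arrays, with 13 residual degrees of freedom, and tested contrasts with empirical Bayes moderation. The Benjamini-Hochberg adjustment covered all 19296 genes in each comparison. Errors are the moderated SE for differences and SD for group means. Fold values are 2 raised to the absolute log2 difference.

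The SoxC genes and all lists were chosen with earlier results of these data known, so counts of called list genes are descriptions. Sort differences of Sox4 and Sox11 that use FVF+ arrays of E12.5 or E15.5 are therefore given without a test. From each list, up to 4 called genes per direction and up to 2 genes not called are named. The genes most like a SoxC gene pass over predicted genes. Of the lists, 3 endocrine, 1 cell cycle and 2 oncofetal genes had no probe set with 1 symbol. The fit was tested on simulated data (200 of 19296 genes changed). A change of 1 log2 unit was recovered for 90.5% in the FVF+ step from E13.5 to E14.5, 99.5% in the mean sort difference and 89% in the FVF- comparison of E15.5 with E12.5, and one of 0.5 for 33%, 92.5% and 44.5%. At most 0.0681% of unshifted genes were called. More than 200 genes were called in each of these comparisons of the real data, so the rates need not carry over to them.

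Alternatives were median centring, quantile and cyclic loess normalization, array weights, robust moderation with an intensity trend, a filter on dim genes (a group mean above 8.74), averaged probe sets per gene, all probe sets, fits on the named groups alone, a replicate block, a letter-code term, the sort difference averaged without E13.5, a 2-fold threshold for list counts, r over 21 arrays, and leaving out each array.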

Additional observations from a re-analysis of the deposited data

How the results depend on the processing

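The sort differences of Sox12 over the 4 days, at E14.5 and at E15.5 and the FVF- fall of Sox11 from E12.5 to E15.5 kept their direction and their call under each alternative run and without each array. The untested Sox11 sort difference was -1.09 to -0.63 over the 4 days and -2.12 to -1.94 at E15.5 across the alternatives. Averaged over E13.5 and E14.5 only, an alternative chosen after seeing the data, that of Sox4 was 0.042. Fits on the named groups alone do not apply to the mean over days, which uses all groups. For the results below the cause was not tested, except where fewer arrays enter the fit.

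With median centring the mean sort difference of Sox4 was 0.0058, its interaction from E13.5 to E14.5 was 0.0017 and the Sox12 interaction from E12.5 to E15.5 was 0.023. Quantile normalization gave -0.038 for the Sox4 sort difference at E14.5, and -0.57 (limma adjusted p = 0.0534) for Sox4 and -0.42 (0.0714) for Sox12 in FVF- from E12.5 to E15.5. Cyclic loess gave -0.016 and -0.089 for the Sox4 sort difference at E13.5 and E14.5, and -0.49 (0.127) for Sox4 and -0.36 (0.135) for Sox12 in FVF-. Array weights called the FVF+ step of Sox4 from E13.5 to E14.5 (-0.53, 0.0124) and not the FVF- step of Sox11 (-1.02, 0.0784). Fitted on the named groups alone, that FVF- step of Sox11 was not called (-1.08, 0.267), and its E12.5 sort difference, given without a test, was -0.44 with a smaller error.

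With the letter-code term the sort difference at E13.5 was -0.44 for Sox4, -1.08 (0.00747) for Sox11 and -0.61 (0.0141) for Sox12. The FVF- change from E12.5 to E13.5 was -0.36 for Sox4, and that of Sox11 from E13.5 to E14.5 was -0.46 (0.471). The FVF+ difference from E12.5 to E13.5 was -0.88, -1.59 and -0.66 for Sox4, Sox11 and Sox12, that from E13.5 to E14.5 was 0.37, -0.20 and 0.45, and the interaction was 0.47, 0.26 and 0.073.

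Whether the replicate numbers pair the samples could not be decided. Over 10 pairs of the same number and day, deviations from the group means correlated at -0.37 to 0.49, with 3 over 0.1. By replicate, r was -0.01 and 0.09 at E12.5, -0.37, -0.22 and 0.49 at E14.5, and 0.20, 0.14 and 0.08 at E15.5. Each E13.5 pair gave -0.03. Deviations cancel out within such small groups, so the pairs of a day are not independent and the check cannot exclude pairing. With the replicate block Sox12 in FVF- from E12.5 to E15.5 was -0.44 (0.0588), no other SoxC call changed, and calls over all genes in FVF- from E13.5 to E14.5 went from 506 to 970 lower and from 1096 to 1361 higher.

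Leaving out single arrays moved the values as follows. For Sox4 the ranges were -0.15 to 0.10 for the mean sort difference, -0.44 to 0.54 at E13.5, -0.07 to 0.16 at E14.5, -0.69 to -0.52 in FVF- from E12.5 to E15.5, -0.36 to 0.63 from E12.5 to E13.5, -1.08 to -0.10 from E13.5 to E14.5, and -0.51 to 0.47 for that step's interaction. For Sox11 they were -1.08 to 0.17 for the sort difference at E13.5, -0.95 to -0.62 at E14.5, -0.95 to 0.29, -1.70 to -0.46 and -0.055 to 0.20 for the daily FVF- steps in order, -1.59 to -1.25 for the FVF+ step from E13.5 to E14.5, and -0.98 to 0.26 for the interaction. For Sox12 they were -0.60 to -0.41 at E12.5, -0.61 to 0.00 at E13.5, -0.56 to -0.40 in FVF- from E12.5 to E15.5, -0.54 to 0.07 and -0.23 to 0.38 for the first FVF- steps, -0.54 to 0.073 for the interaction, -0.13 to 0.055 in FVF+ from E12.5 to E13.5, and -0.14 to 0.062 for the interaction from E12.5 to E15.5.

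Beside those given above, counts over all genes (lower, higher) moved by over 1.5 times as follows. In FVF- from E12.5 to E13.5 they were 31 and 166, against 9 and 110 with array weights, 15 and 134 among 11485 brighter genes and 66 and 347 with the letter term. From E13.5 to E14.5 they were 506 and 1096, against 55 and 279 with array weights and 8 and 25 with the letter term. From E14.5 to E15.5 cyclic loess gave 435 and 232, against 898 and 355. In that step the brighter genes held 899 and 214, and array weights gave 1007 and 535. From E12.5 to E15.5 array weights gave 2914 and 2912, against 1872 and 2073. In FVF+ from E13.5 to E14.5 array weights gave 1470 and 1896, against 573 and 1134, and from E12.5 to E15.5 the brighter genes held 2672 higher, against 5317. In the simulated data, with 2 or 3 arrays a group, changes of 0.5 log2 units were often not recovered within a sort.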

Other observations

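Growth-associated embryonic genes gave a further view of the same days. Their list was chosen with earlier results of these data known, so its counts are descriptions. Of 8 measured oncofetal and imprinted genes, all 8 fell in FVF+ from E12.5 to E15.5, with a median of -0.74 against 0.09 over all genes, 19.3% of which fell. Igf2bp1 (-1.58 ± 0.12), which encodes an RNA-binding protein of embryonic cells, and the chromatin gene Hmga2 (-1.46 ± 0.26) led them, followed by the imprinted gene Mest (-0.88 ± 0.13) and Igf2bp3 (-0.81 ± 0.13). In FVF- 4 of the 8 fell, where 9.7% of all genes did. They were Hmga2 (-2.72 ± 0.29, limma adjusted p = 4.74e-06), Igf2bp1 (-1.16 ± 0.14), Lin28b (-0.83 ± 0.12), which blocks the let-7 miRNAs, and Igf2bp3 (-0.55 ± 0.15). The mean signal of Lin28b was low (6.51), below the median of all values (8.74). Dlk1 (0.05 ± 0.10) and Igf2 (-0.16 ± 0.11) were not called in FVF-. Between the sorts, Hmga2 (0.72 ± 0.14) and Igf2bp3 (0.31 ± 0.07) were higher in FVF+, where 30.5% of all genes were, and Mest (-0.88 ± 0.07), Igf2 (-0.58 ± 0.05) and Dlk1 (-0.43 ± 0.05) were lower, where 25.2% were. Peg3 (0.13 ± 0.06) and Igf2bp1 (0.00 ± 0.07) were not called.

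The cell cycle list, too, was chosen with earlier results known, so its counts are descriptions. The fall of 3310 among the 11485 genes with a group mean above 8.74 applies here as well. Of 21 measured cell cycle genes, 8 fell in FVF+ from E12.5 to E15.5, where 19.3% of all genes did, and none rose, where 27.6% did. They were led by the mitotic genes Bub1 (-1.59 ± 0.26), Cenpe (-1.49 ± 0.37), Kif11 (-1.17 ± 0.24) and Cenpf (-0.87 ± 0.28), while Cdk1 (0.09 ± 0.14) and Ccnd2 (-0.04 ± 0.11) were not called. In FVF- only the replication gene Mcm6 fell (-0.42 ± 0.11), where 9.7% of all genes did, Pcna (-0.12 ± 0.12) and Ccnd2 (-0.31 ± 0.12) were not called, and none rose (limma). Between the sorts, 12 were higher in FVF+, where 30.5% of all genes were, such as Cenpf (0.69 ± 0.15), Rrm2 (0.64 ± 0.07) and Kif11 (0.63 ± 0.13), and 2 were lower, where 25.2% were, Ccne1 (-0.63 ± 0.07) and Ccnd2 (-0.28 ± 0.06).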
